A study of Homo sapiens with 6 samples.

Results

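Replication-dependent histone genes are the 69 genes of the H1, H2A, H2B, H3 and H4 classes whose symbols follow the cluster nomenclature (H1-1 to H1-6, H2AC, H2BC, H3C and H4C numbers), out of 60612 genes in the deposited table. They comprised 6 H1, 17 H2A, 18 H2B, 13 H3 and 15 H4 genes. The cells were U87, an established human glioblastoma cell line, and RNA was sequenced from 3 NC libraries, carrying a scramble shRNA, and 3 shPRMT6 libraries, carrying an shRNA against the arginine methyltransferase PRMT6. Both shRNAs were delivered by lentivirus, and the infected cells were selected as stable lines. The shRNA sequence behind the sequenced lines was not named in the sources used here, so the comparison rests on a single knockdown condition and cannot tell an effect of PRMT6 loss from one of that shRNA. The methods describe 3 independent replicates of each line.

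Core histones H2A, H2B, H3 and H4 form the protein spool of the nucleosome, and H1 binds the linker DNA between nucleosomes. Each class is encoded by many intron-poor gene copies in clusters, which are transcribed mostly in S phase, when new DNA must be packaged. Their mRNAs usually end just after a short stem-loop, bound by SLBP, in place of a poly(A) tail, but some of these genes also give spliced or longer mRNAs that end in a poly(A) tail, known chiefly from cells that have left the cycle.

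The stem-loop is shown because the end of the mRNA sets which histone transcripts a given library protocol can recover. Of the 69 gene models of GENCODE 29 on GRCh38, 34 have no 3′ UTR that could be searched, and 4 have one without the stem-loop. A 16-base stem-loop, with at most 1 mismatch to its consensus, was found within 100 bases after the stop codon in the other 31. It came in 6 forms, written below 5′ to 3′ as DNA, with capitals for the bases that differ from the commonest form.
Form of 17 H2A, H2B and H3 genes, among them H2BC9, H2AC6 and H2AC18: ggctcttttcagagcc
Form of H2BC4, H2BC5, H2BC7 and H3C8: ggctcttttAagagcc
Form of H4C2, H4C5, H4C8, H4C11 and H4C16: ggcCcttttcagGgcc
Form of H4C9, H4C14 and H4C15: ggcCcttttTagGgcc
Form of H3C6: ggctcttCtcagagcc
Form of H2AC11: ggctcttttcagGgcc
Every one of these 6 forms was held by at least 1 gene called higher in shPRMT6, and the commonest form by 6 called higher and by the 1 called lower. The same search found a stem-loop in 7 of 19360 other protein-coding genes with a 3′ UTR.

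The counts summed to between 56388161 and 75887696 per library, and the TMM scaling factors of edgeR lay between 0.992 and 1.01. Values per library are given as CPM, counts scaled to library size by this method, or as FPKM where genes are compared with each other per length. PRMT6 itself had 9.33, 7.97 and 7.19 CPM in the NC libraries and 3.57, 4.58 and 5.24 CPM in the shPRMT6 libraries, without overlap, and fell by 0.87 on the log2 scale (SE 0.187, adjusted p = 0.0225, edgeR quasi-likelihood test with Benjamini-Hochberg adjustment over 18106 genes). This call was lost when NC replicate 1 (adjusted p = 0.0613), shPRMT6 replicate 1 (0.0588) or shPRMT6 replicate 2 (0.0713) was left out of the edgeR fit. Of 10 glioma and mesenchymal markers of U87 cells 9 were tested, CHI3L1 was higher (1.63) and FN1 (-0.72) and TNC (-0.35) were lower. VIM, the intermediate filament vimentin, reached 1299 and 1214 mean FPKM in NC and shPRMT6, while S100B had no count in any library. Of 8 markers of blood, endothelial, epithelial and neuronal cells 5 were tested and none was called by edgeR or limma (by edgeR 1 higher and 1 lower at an unadjusted p under 0.05, and the same numbers called by DESeq2), HBB had no count, and the list summed to 28.6 to 35.8 CPM in NC and 24.8 to 30.3 CPM in shPRMT6. NC replicate 2 stood apart in RNAs that carry no poly(A) tail: 26 such genes (small nuclear, nucleolar and other noncoding RNAs) summed to 27.4 CPM there and to between 59.4 and 71.1 CPM in the other 5 libraries. Low counts piled up at multiples of 4 (in NC replicate 1, 1240 genes had a count of 4 and 225 had a count of 5), so low counts may hold less information than their size implies.

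Among the 49 replication-dependent histone genes that passed edgeR's filter on low counts, 16 were called at an adjusted p under 0.05: 15 were higher and 1 was lower in shPRMT6. The called share was 32.7% of the members tested, against 18.6% of all genes tested. In the direction of higher in shPRMT6 it was 30.6%, against 9.51% of all genes, and in the direction of lower it was 2.04%, against 9.06%. The median log2 fold change was 0.51 over the 49 and -0.01 over all genes tested. Of the 49, 38 had at least 10 counts in every library, and only 2 reached that count in all shPRMT6 libraries without reaching it in all NC libraries. CPM of the groups did not overlap in 23 of the 49, against 40.2% of all genes tested. The shares describe the members and were not tested as a set. Counts of calls by class, mRNA end, cluster and promoter below are to be read against these shares of all genes. Without NC replicate 2 the edgeR fit called 16 members, and without shPRMT6 replicate 2, the lowest of the fits that left out a library, it called 12.

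**Figure D1:**
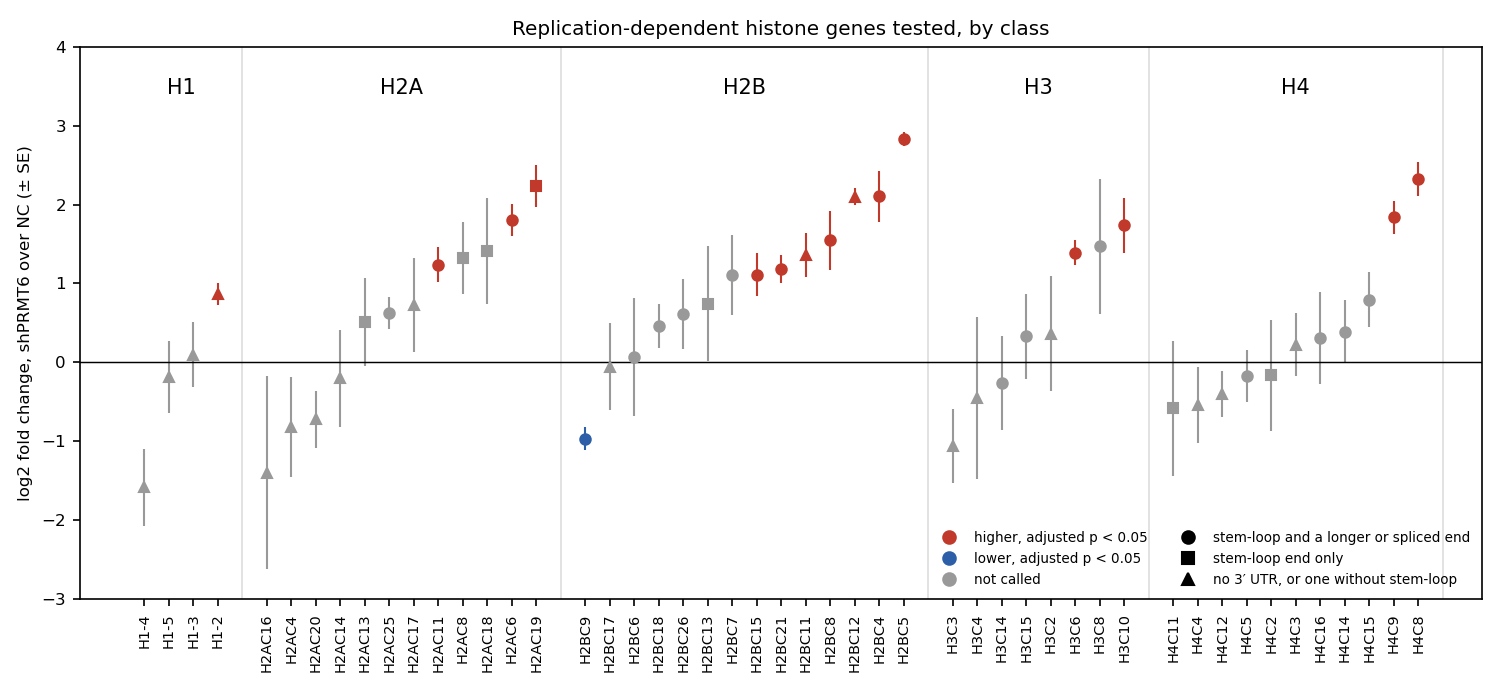
Log2 fold change of shPRMT6 over NC (y axis, bars are SE) for the 49 histone genes tested, ordered by value within each class, with colour for the call and symbol shape for the annotated end of the mRNA. H2BC5 is the highest point at 2.83, H2BC9 is the only lower call at -0.97, and most circles, genes with a stem-loop and a longer or spliced end, lie above 0.

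H2B genes, which encode the partner of H2A in the nucleosome, held the most calls. Of 18 H2B genes 14 were tested, 7 were higher and 1 was lower, with a median log2 fold change of 1.11. H2BC5 (HIST1H2BD, ENSG00000158373) lies at chr6:26158146-26171349 on the plus strand. It had 4.56, 5.02 and 4.85 CPM in NC replicates 1, 2 and 3 and 35.5, 34.4 and 32.9 CPM in shPRMT6 replicates 1, 2 and 3. Every shPRMT6 library was far above every NC library, and the spread within each group was small beside the gap (4.81 ± 0.235 against 34.3 ± 1.30 CPM, SD, n = 3). H2BC5 has 2 transcripts in GENCODE 29, of which 1 ends after the stem-loop and the other splices past it to an exon far downstream; counts per gene do not separate them.

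H2BC12 (HIST1H2BK) was the most abundant member per length, at 22.6 ± 2.61 FPKM in NC and 97.7 ± 6.43 FPKM in shPRMT6 (SD, n = 3). Its level was 12.7, 15.1 and 12.1 CPM in the NC libraries and 52.8, 59.7 and 58.9 CPM in the shPRMT6 libraries, so the groups were well apart (log2 fold change 2.10, SE 0.112, adjusted p = 0.000308, edgeR). Of its 75-base stretches 50.5% also occur in other genes, chiefly in its near copy H2BC12L, which held at most 16 counts in any library beside 711 to 3992 for H2BC12. GENCODE 29 gives H2BC12 the coding sequence of 381 bases alone, while the ratio of its counts to its FPKM implies that 495 bases were counted. H2BC4, another H2B gene, had 0.697, 1.66 and 1.22 CPM in NC and 5.14, 4.52 and 5.83 CPM in shPRMT6. Its lowest shPRMT6 library was above its highest NC library, with a log2 fold change of 2.11 (SE 0.324, adjusted p = 0.00715, edgeR).

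Smaller rises were called for H2BC8 (log2 fold change 1.55), H2BC11 (1.36), H2BC21 (1.18) and H2BC15 (1.11). H2BC21, the H2B gene of the chromosome 1 cluster with the highest FPKM of that cluster's H2B genes, had 5.92, 5.35 and 7.74 CPM in NC and 12.9, 16.3 and 13.9 CPM in shPRMT6. The groups did not overlap, and its call held in all 17 alternative fits that could be made for it. H2BC8, H2BC11 and H2BC15 lost their calls in 6, 4 and 5 of 15 alternative fits each. By edgeR, H2BC8 was not called without NC replicate 3 (adjusted p = 0.101) or any single shPRMT6 library (0.0824, 0.0791 and 0.107 without replicates 1, 2 and 3). H2BC11 was not called without NC replicate 3 (0.0551), shPRMT6 replicate 2 (0.0726) or shPRMT6 replicate 3 (0.0589), and H2BC15 without NC replicate 1 (0.0836), NC replicate 3 (0.101), shPRMT6 replicate 1 (0.0798) or shPRMT6 replicate 2 (0.104). The model of H2BC15 spans 5477 exonic bases and overlaps an H2A gene on each strand, so its counts may include those of its neighbours. The 6 H2B genes tested and not called ranged from -0.06 (H2BC17) to 1.11 (H2BC7).

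H2BC9 (HIST1H2BH) was the only member called lower. Other members also had lower values without a call, among them H1-4 (log2 fold change -1.59) and H3C3 (-1.06). H2BC9 had 6.33, 6.23 and 6.09 CPM in the NC libraries and 3.13, 2.78 and 3.60 CPM in the shPRMT6 libraries. The NC values were tight and all lay above the shPRMT6 values, a fall of 0.97 on the log2 scale (SE 0.147, adjusted p = 0.00685, edgeR), which was past the threshold in all 17 alternative fits, with log2 fold changes from -1.07 to -0.62. In NC it stood between H2AC6 (5.70 CPM) and H2BC21 (6.34 CPM), both of which rose. H2BC9 has the commonest stem-loop and a model that runs 1640 bases past it.

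**Figure D2:**
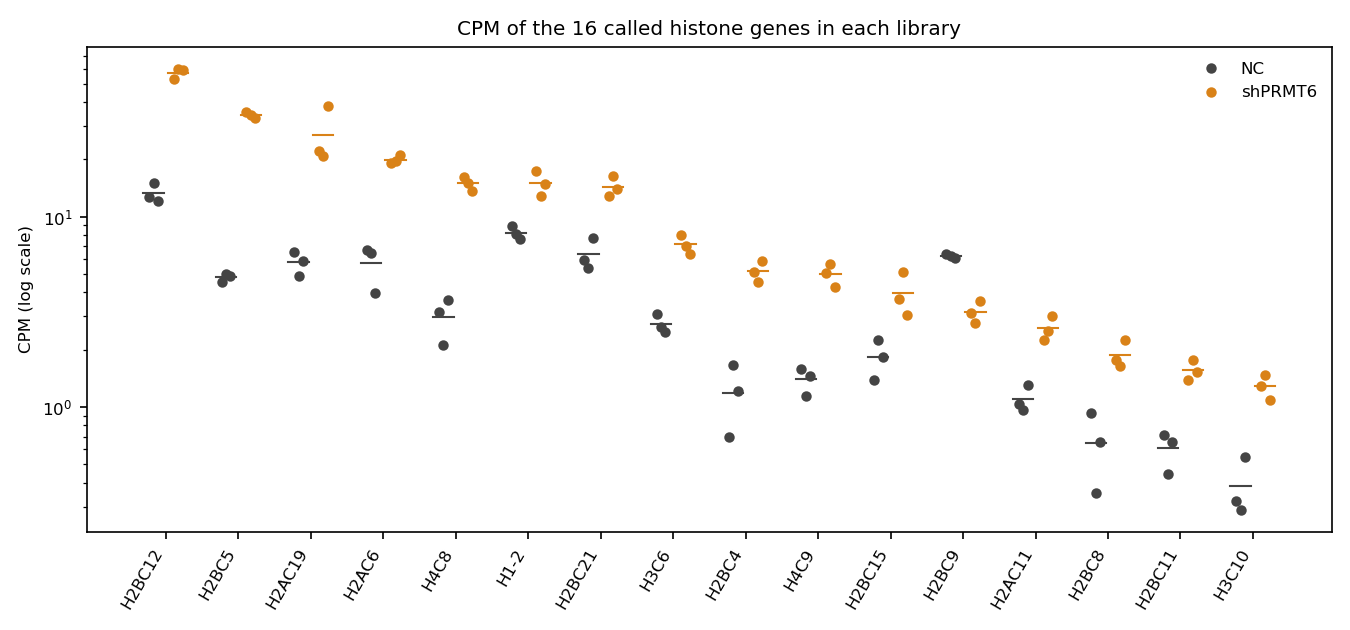
CPM on a log axis of the 16 called histone genes in each of the 3 NC and 3 shPRMT6 libraries; points are libraries and bars are group means. Groups do not overlap for any of the 16 genes, H2BC9 alone has NC above shPRMT6, and H2AC19 has a single shPRMT6 library at 38.2 CPM above the others at 20.9 and 22.0 CPM.

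H2A genes were called in 3 of 12 tested (of 17), all higher, with a median log2 fold change of 0.67. Of all genes tested 18.6% were called and 9.51% were called higher, so these few calls are no result about the class. H2AC6 had 6.69, 6.44 and 3.97 CPM in NC and 19.1, 19.7 and 21.0 CPM in shPRMT6 (log2 fold change 1.80, SE 0.207, adjusted p = 0.0027, edgeR). NC replicate 3 was the lowest of the 6 libraries, and the groups were well separated with or without it. H2AC11 rose from 1.10 ± 0.177 to 2.59 ± 0.380 CPM (SD, n = 3; log2 fold change 1.24).

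H2AC18 and H2AC19 are near-identical genes on chromosome 1 (100% and 96.9% of their 75-base stretches occur in other genes), on opposite strands at chr1:149842188-149842736 and chr1:149851061-149851624. The table gave H2AC18 counts of 360, 368 and 364 in NC and 1382, 1288 and 191 in shPRMT6, and gave H2AC19 counts of 364, 370 and 367 in NC and 1402, 1284 and 2586 in shPRMT6. The split was close to even in 5 libraries (49.6% to 50.1% to H2AC18) and 6.88% in shPRMT6 replicate 3. Taken alone, H2AC19 was called higher (log2 fold change 2.23) and H2AC18 was not (1.41, adjusted p = 0.201, edgeR). Without shPRMT6 replicate 3 H2AC18 was also called (log2 fold change 1.91, adjusted p = 0.00613, edgeR). The sum of both was 13.0, 9.71 and 11.7 CPM in NC and 43.7, 41.8 and 41.0 CPM in shPRMT6, with no library out of line. The edgeR fit on summed pairs, added after the data had been seen, gave a log2 fold change of 1.88 (SE 0.122, adjusted p = 0.000534). How the shared reads were assigned in that library is not given in the sources used here, so the summed value is the one to read.

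**Figure D3:**
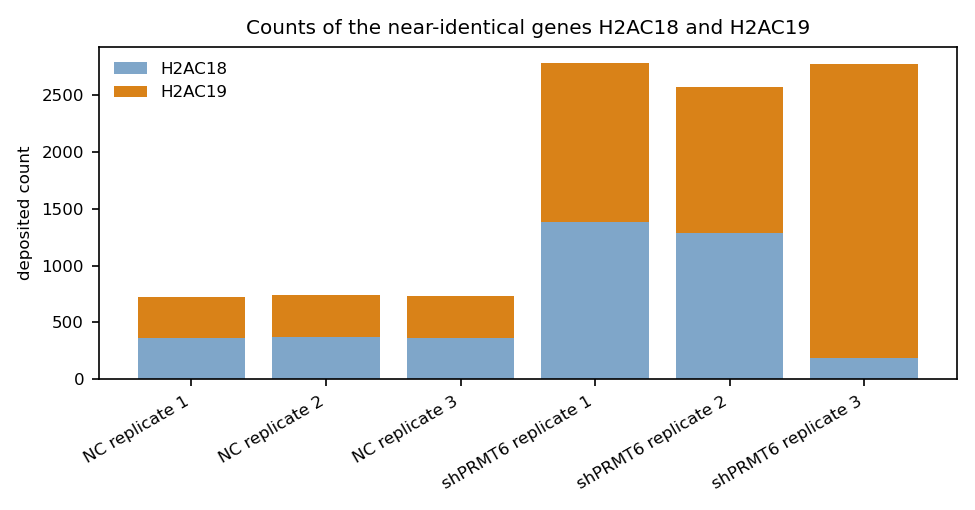
Deposited counts of H2AC18 and H2AC19 stacked in each library. Both genes take nearly equal counts in 5 libraries and unequal counts in shPRMT6 replicate 3 (191 and 2586), while the stacked heights are 724 to 738 in NC and 2572 to 2784 in shPRMT6.

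The same uneven split in shPRMT6 replicate 3 was seen in the other chromosome 1 copies. H3C14 took 20.5% of the counts of the H3C14 and H3C15 pair there and 50% to 53.1% elsewhere. H4C14 took 17.2% of its pair with H4C15 there and 43.0% to 59.8% elsewhere. Neither H4 copy was called alone (log2 fold changes 0.39 and 0.80), whereas their sum rose from 5.64 ± 0.704 to 8.67 ± 1.26 CPM (SD, n = 3; log2 fold change 0.62, adjusted p = 0.0424, edgeR on summed pairs). The H3 pair held 24 to 46 counts per library and gave a log2 fold change of 0.06 (SE 0.421).

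H4 genes, which pair with H3 at the core of the nucleosome, were called in 2 of 11 tested (of 15), both higher. That share is near the 18.6% of all genes called in either direction (9.51% higher), so the count is no result about the class. H4C8 (HIST1H4H) had 3.17, 2.12 and 3.65 CPM in NC and 16.1, 15.1 and 13.7 CPM in shPRMT6, without overlap (log2 fold change 2.33, SE 0.217, adjusted p = 0.00153, edgeR). H4C9 had 1.59, 1.14 and 1.46 CPM in NC and 5.04, 5.67 and 4.27 CPM in shPRMT6, also without overlap (1.84, SE 0.204, adjusted p = 0.00245). Both have models that run beyond the stem-loop, by 1655 and 212 bases. The H4 gene of highest mean FPKM, H4C12, was at 7.02, 4.43 and 6.30 FPKM in NC and 5.87, 4.39 and 3.18 FPKM in shPRMT6. Its groups overlapped and it was not called (log2 fold change -0.41, adjusted p = 0.391, edgeR). The whole of its sequence also occurs in other genes, chiefly in H4C11. H4C11 took between 6.06% and 44.1% of the counts of this pair, depending on the library. The summed pair was not called either (log2 fold change -0.45, SE 0.311, adjusted p = 0.369, edgeR on summed pairs). The median over the 11 was 0.22.

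H3 genes were called in 2 of 8 tested (of 13), both higher, with a median log2 fold change of 0.35. Among all genes tested 18.6% were called and 9.51% were higher, so these few calls are no result about the class. H3C6 had 3.08, 2.63 and 2.48 CPM in NC and 8.04, 7.04 and 6.39 CPM in shPRMT6, a clear gap between groups (log2 fold change 1.39, SE 0.159, adjusted p = 0.00267, edgeR). H3C10 rose at a low level, from 0.385 ± 0.139 to 1.29 ± 0.193 CPM (SD, n = 3; log2 fold change 1.74). Its call was lost in 4 of 15 alternative fits, among them edgeR without NC replicate 1 (adjusted p = 0.0532), shPRMT6 replicate 1 (0.0574) or shPRMT6 replicate 2 (0.0683). H3C3, second to H3C6 in FPKM within the class, had 0.626, 0.303 and 0.545 CPM in NC and 0.298, 0.195 and 0.207 CPM in shPRMT6. Its NC values lay above its shPRMT6 values, NC replicate 2 by a narrow margin, and it was not called (log2 fold change -1.06, SE 0.465, adjusted p = 0.169, edgeR).

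H1 was represented mainly by H1-2, which held 86.4% of the summed H1 CPM in NC and 94.0% in shPRMT6. H1-2, a linker histone made in most tissues, had 8.89, 8.09 and 7.63 CPM in NC and 17.3, 12.8 and 14.8 CPM in shPRMT6, without overlap (log2 fold change 0.87, SE 0.141, adjusted p = 0.00873, edgeR). The remaining 3 H1 genes tested were not called. H1-4, the direct neighbour of H2BC5, had 0.626, 0.539 and 0.304 CPM in NC and 0.173, 0.195 and 0.118 CPM in shPRMT6. Its NC libraries were all higher, and the value of -1.59 (SE 0.489) missed the threshold (adjusted p = 0.0695, edgeR) at a mean count of 21.0 per library. H1-5, next in FPKM after H1-2, had overlapping groups (log2 fold change -0.18, SE 0.457), and without shPRMT6 replicate 1 its value turned to 0.038.

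Summed over members, every class was higher in shPRMT6. Summed FPKM went from 36.6 ± 2.34 to 148.6 ± 6.24 for H2B, from 32.0 ± 5.50 to 89.4 ± 1.55 for H2A, from 15.5 ± 3.87 to 21.6 ± 1.61 for H4, from 10.8 ± 0.790 to 18.3 ± 2.55 for H1 and from 3.60 ± 1.11 to 5.25 ± 0.570 for H3 (SD, n = 3). H2BC12 alone held 45.8% of the summed H2B CPM in shPRMT6, and without it the H2B sum still went from 24.2 ± 1.03 to 67.8 ± 1.92 CPM. H4C8 went from 18.8% to 44.8% of the summed H4 CPM. In FPKM, the rises of the sums lay mostly in the called members and H2AC18. Without the called members and H2AC18, the other 52 members summed to 38.2, 22.4 and 31.8 FPKM in NC and 34.2, 31.2 and 32.6 FPKM in shPRMT6. These groups overlapped, and the median log2 fold change of the 32 tested among them was 0.08. The members left out were picked by their values in these same libraries, so a flat remainder was partly fixed by that choice. It therefore cannot tell whether the rise was limited to the members left out. Differences between classes were not tested.

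**Figure D4:**
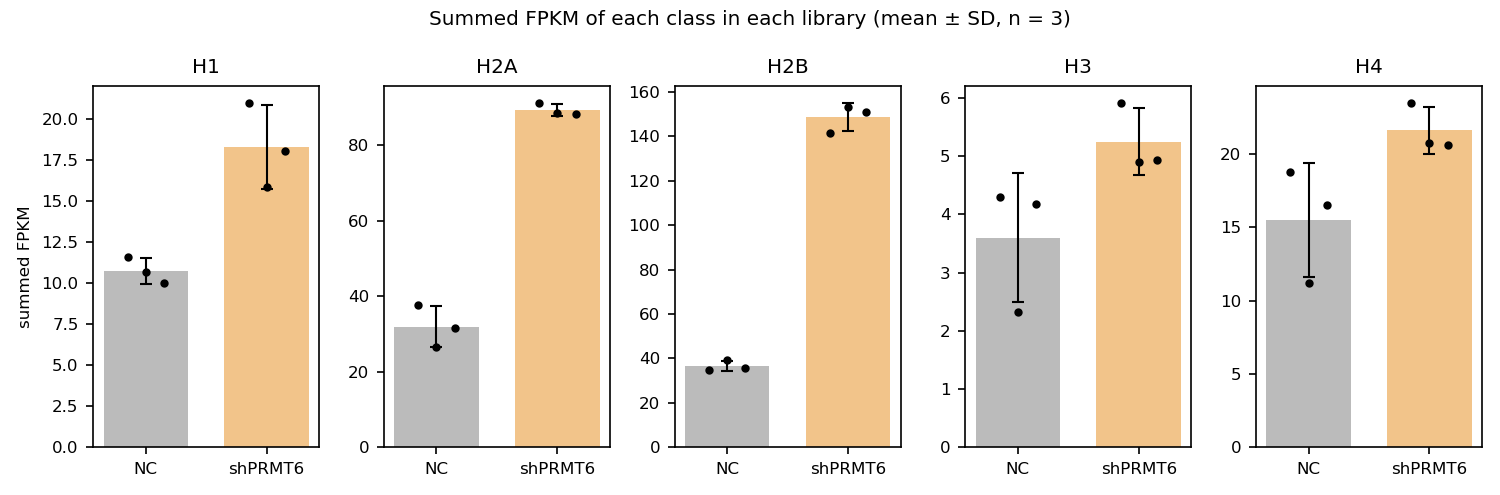
Summed FPKM of the members of each class, with a separate y axis for each class starting at 0; bars are means, error bars are SD and points are the 3 libraries of each group. The H2B and H2A sums are far apart between groups, 36.6 against 148.6 and 32.0 against 89.4, while the NC values of H3 and H4 spread more widely, with NC replicate 2 lowest.

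The members were also grouped by the end that GENCODE 29 gives their mRNA. Among all genes tested 9.51% were higher and 9.06% were lower. Of 24 members whose model holds a stem-loop and also an end more than 100 bases beyond it, or a transcript that splices past it, 24 were tested, 11 were higher and 1 was lower, with a median log2 fold change of 1.11. Of 7 members with a stem-loop end alone, 7 were tested and 1 was higher, namely H2AC19 (median 0.74). Its near copy H2AC18, in the same group, was not called alone, while the summed pair was called higher (log2 fold change 1.88). Of 34 members whose model stops at the coding sequence, 15 were tested and 2 were higher, H1-2 and H2BC12 (median -0.20, range -1.40 to 2.10). For these 15 the ratio of counts to FPKM implies that more than the coding sequence was counted. It gave 731 bases for H1-2 (642 coding) and 387 for H4C12 (312 coding). This group therefore describes GENCODE 29 models, which may differ from those counted, and not a known kind of mRNA end. The remaining 4 members have a UTR without a stem-loop in the window searched; 3 were tested and H2BC11 was higher. Models with long ends also collected more counts, a median of 152.7 per library over the members tested against 25.0 for models that stop at the coding sequence; the part of depth in these counts of calls was not tested. H2BC9, which fell, belongs to the group with longer ends, as do 12 genes that were not called, such as H2BC18 (0.46), H4C5 (-0.18) and H4C16 (0.31).

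Whether the libraries were made from RNA selected by its poly(A) tail is not stated in the sources used here. Among the 26 RNAs without a poly(A) tail 11 were tested and none was called by edgeR, DESeq2 or limma, nor was any at an unadjusted p under 0.05 by edgeR (median log2 fold change 0.23). Their summed level was 71.1, 27.4 and 65.5 CPM in NC and 64.0, 67.2 and 59.4 CPM in shPRMT6. Apart from the low value of NC replicate 2 the groups lay in the same range. Other short genes (under 1000 exonic bases, 1972 tested) had a median log2 fold change of -0.08, and 2.84% of them were higher. The part of transcript ends in the histone rises was not tested.

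Most members lie in the HIST1 cluster on chromosome 6, which spans chr6:25726132-27893843 and held 55 of the 69 genes. Of these 37 were tested, 13 were higher and H2BC9 was lower, against 9.51% higher and 9.06% lower of all genes tested. In its first stretch, up to H4C8, 7 of 22 tested genes were higher and 1 was lower (median log2 fold change 0.29), and in its second stretch, which starts at H2BC11 and H2AC11, 6 of 15 were higher (median 0.72). Called and uncalled genes alternated. H2BC5 at 2.83 stood beside H1-4 at -1.59 and not far from H2BC6 at 0.07, and H4C9 and H2BC12 stood with H2AC11 and H2BC11 in a short run whose tested members all rose. On chromosome 1, the HIST2 cluster had 2 higher among 9 tested (H2AC19 and H2BC21), against 9.51% of all genes tested. Summed as pairs, H2AC18 with H2AC19 and H4C14 with H4C15 of this cluster were also called higher. The HIST3 pair H2AC25 and H2BC26 had log2 fold changes of 0.62 and 0.62 without a call, and the single chromosome 12 gene H4C16 was not called.

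**Figure D5:**
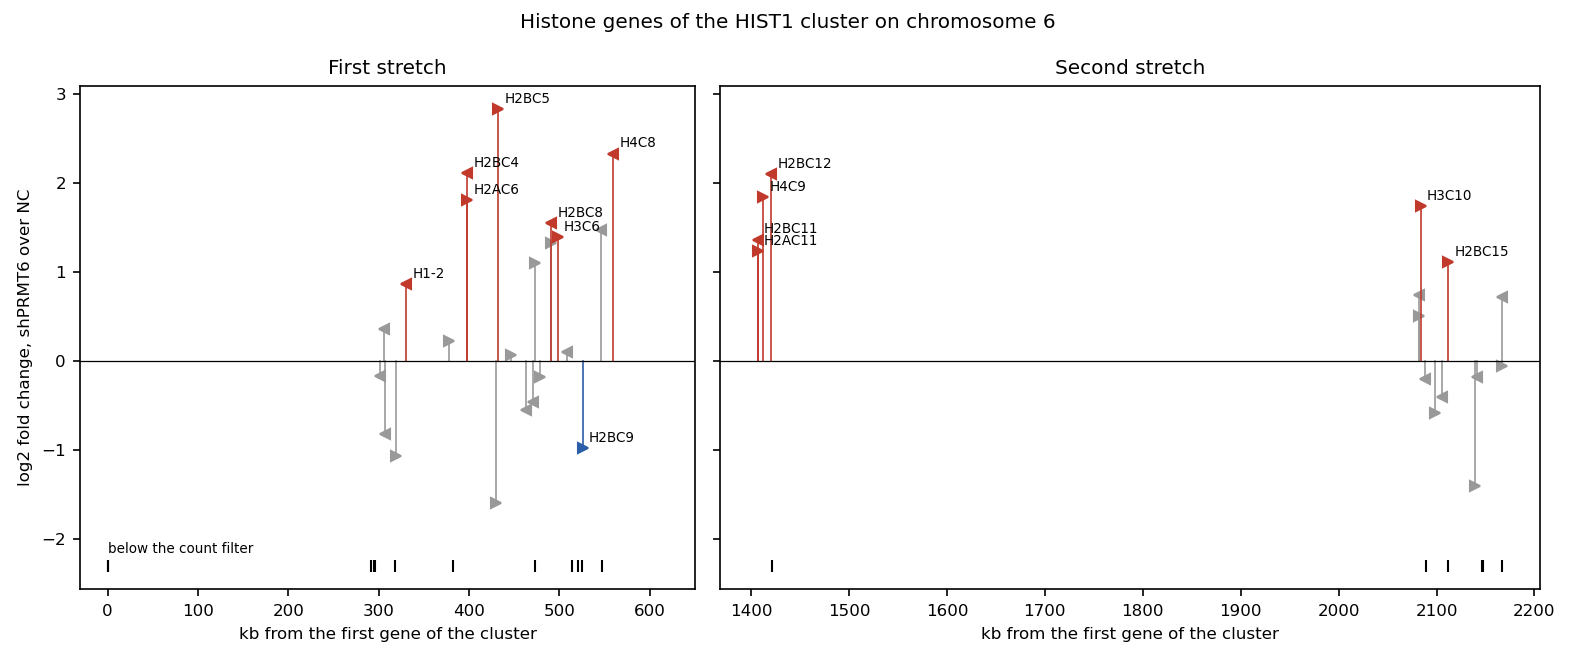
Log2 fold change of shPRMT6 over NC along the HIST1 cluster, with the x axis in kb from the first gene, split at the gap in the cluster; arrowheads give the strand, red and blue the calls, and ticks at the bottom the members below the count filter. Red genes are spread over both stretches among grey neighbours, and the run at the left of the second panel holds H2BC11, H2AC11, H4C9 and H2BC12.

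H2A and H2B genes often sit head to head and share the DNA between their starts. There were 11 such pairs with starts under 1000 bases apart, and in 7 of them both genes were tested. Both rose in H2AC11 with H2BC11 (1.24 and 1.36) and in H2AC6 with H2BC4 (1.80 and 2.11). In H2AC8 with H2BC8 the H2B gene rose (1.55), and the H2A gene had 0.769, 0.355 and 1.33 CPM in NC and 2.12, 2.10 and 1.92 CPM in shPRMT6, a gap that missed the threshold (1.33, adjusted p = 0.0933, edgeR). The values parted in H2AC20 with H2BC21, where H2BC21 rose by 1.18 and H2AC20 was at -0.73 (adjusted p = 0.217, edgeR). In the pairs H2AC25 with H2BC26, H2AC13 with H2BC13 and H2AC17 with H2BC17 neither gene was called.

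The promoters of 3 H2B genes are shown: H2BC5 and H2BC12, the H2B genes that rose with the smallest p, and H2BC9, the H2B gene called lower, all on chromosome 6. Each line is the 250 bases before the RefSeq start on GRCh38.p14, 5′ to 3′ on the gene's strand, with capitals for 3 motifs on either strand: the octamer ATTTGCAT, known as a site of OCT1 in H2B promoters, CCAAT, bound by NF-Y, and the TATA box TATAAA.
H2BC5, chr6:26157871-26158120, plus strand: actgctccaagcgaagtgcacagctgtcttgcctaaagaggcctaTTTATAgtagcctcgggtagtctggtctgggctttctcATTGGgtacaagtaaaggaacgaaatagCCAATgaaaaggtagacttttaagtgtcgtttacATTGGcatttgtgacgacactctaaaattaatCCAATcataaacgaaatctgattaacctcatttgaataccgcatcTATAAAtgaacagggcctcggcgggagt
H2BC12, chr6:27146859-27147108, minus strand: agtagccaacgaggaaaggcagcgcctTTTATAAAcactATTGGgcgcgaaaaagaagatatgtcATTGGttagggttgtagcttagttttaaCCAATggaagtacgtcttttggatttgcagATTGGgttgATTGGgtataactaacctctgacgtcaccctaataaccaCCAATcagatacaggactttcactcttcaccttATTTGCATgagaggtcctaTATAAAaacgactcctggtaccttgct
H2BC9, chr6:26251364-26251613, plus strand: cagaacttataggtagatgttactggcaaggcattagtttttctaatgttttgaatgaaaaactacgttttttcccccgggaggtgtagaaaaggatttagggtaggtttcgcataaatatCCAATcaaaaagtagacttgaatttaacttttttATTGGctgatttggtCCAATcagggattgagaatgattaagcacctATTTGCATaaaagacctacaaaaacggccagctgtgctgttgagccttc
The octamer letters lie 46 bases before the start of H2BC12 and 49 bases before that of H2BC9, and H2BC5 has none in this window. TATAAA lies 28 and 27 bases before the starts of H2BC5 and H2BC12, and H2BC9 has none. In H2BC12 a pair of TATA matches on opposite strands overlap.

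Over windows of 250 bases before to 50 after the start, promoters of 64 members could be matched. The octamer was in 14 of 18 H2B and 11 of 16 H2A promoters, 1 of 11 H3 promoters and in no H1 or H4 promoter, against 1.8% of 27305 RefSeq promoters. The H3 match is no separate promoter. It is the window matched to H3C4, chr6:26199244-26199543, which is the same window as that of H2AC7. The H3C4 model itself lies at chr6:26196840-26197250, outside it. CCAAT was in 54 of the 64, against 35.7% of all promoters, and TATAAA was in 42, against 11.9%. Of the members tested, 7 of 19 with an octamer were higher and 8 of 29 without one were higher, with median log2 fold changes of 0.72 and 0.51. Of those with TATAAA 11 of 31 were higher and of those without it 4 of 17 were higher. Among all genes tested 9.51% were higher. These matches are descriptions of letters in a window and were not tested against the response.

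Genes that act on histone genes and their mRNAs were given by lists. SLBP, which binds the stem-loop, fell by 0.54 (89.4 ± 5.95 to 61.5 CPM, adjusted p = 0.00443, edgeR), and NPAT, the coactivator of histone transcription, was not called (log2 fold change -0.02, SE 0.0999). Of 24 genes of histone mRNA processing 9 were lower and 1, CSTF3, was higher by 0.58; CSTF2T (-0.50) and ZNF473 (-0.57), the latter a component of the U7 particle that cuts histone pre-mRNA, were among the lower. Of 12 histone transcription factors and their regulators 5 were lower, with E2F1 at -0.62, CCNE2 at -0.75 and CDC25A at -0.95 having the smallest p, and POU2F1, which encodes OCT1, also fell by 0.85. Of 19 genes of histone mRNA decay 1 was higher, TUT7 (0.69), a uridylyl transferase, and 2 were lower, DCP1A (-1.08), a decapping cofactor, and LSM3 (-0.30), of the LSM ring that binds mRNA ends. Of 10 genes of the poly(A) machinery 2 were lower, CPSF7 (-0.63) and NUDT21 (-0.32). The called share was 41.7% in the lists of mRNA processing and of transcription factors, against 18.6% of all genes tested; in the lists of mRNA decay (15.8%) and the poly(A) machinery (20.0%) it was near that background, so their calls are no result about those lists.

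Genes of S phase went the other way from the called histone genes. Of 30 such genes 23 were lower (76.7%, against 9.06% of all genes tested) and none was higher by edgeR, with a median log2 fold change of -0.57. At an unadjusted p under 0.05 by edgeR 1 was higher, and DESeq2 and limma called none higher. SLBP, CCNE2, CHAF1A, CHAF1B and ASF1B are in this list and also in the lists of mRNA processing, transcription factors or chaperones. Calls among them are therefore counted in more than 1 list. POLA1, the DNA polymerase that primes replication, fell by 0.94 and MCM7, a subunit of the replicative helicase, by 0.79. CDC20, the mitotic activator of the anaphase-promoting complex, fell by 1.30 (adjusted p = 0.00058, edgeR). In bulk RNA, fewer cells in S phase and less RNA per cell cannot be told apart. In separate flow cytometry, the study reported arrest at the G0/G1 phase in U87 and LN229 cells with PRMT6 silenced. How far that accounts for the RNA values was not tested.

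Histone variants outside the replication-dependent nomenclature, most of which are also made beyond S phase, were lower in 5 of 11 tested (of 12; 45.5%, against 18.6% of all genes called in either direction) and higher in none by edgeR, DESeq2 or limma, nor at an unadjusted p under 0.05 by edgeR. H2AX, whose mRNA can also end at a stem-loop, was at -1.37, H2AZ2 at -0.80 and H1-10 at -0.92. Of 17 histone chaperones, which carry histones to and from DNA, 4 were lower and 1 was higher (29.4% called). ASF1B, an H3 and H4 chaperone, fell by 1.05, SSRP1, a subunit of FACT, by 0.63 and CHAF1A, of the replication-coupled CAF-1 complex, by 0.57, while HIRA, of the replication-independent pathway, rose by 0.25.

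The 20 members below the filter were at a mean of at most 11.3 counts per library. In 4 of them, H1-1, H2AC1, H2BC1 and H4C7, no library had a count, which allows up to 3 counts, or 0.0395 to 0.0532 CPM depending on the library, for counting error only. This limit takes each count as independent, and with low counts piled up at multiples of 4 it may be too low. H1-6 and H2AC15 averaged 0.667 counts. The remaining 14, H2AC7, H2AC12, H2AC21, H2BC3, H2BC10, H2BC14, H3C1, H3C7, H3C11, H3C12, H3C13, H4C1, H4C6 and H4C13, averaged from 2.50 to 11.3 counts. H4C6 was the only member below the filter whose groups did not overlap in CPM, by a narrow margin, with counts of 0, 0 and 8 in NC and 11, 8 and 12 in shPRMT6. In the alternative edgeR fit on genes with at least 1 count in any library, 16 of the 20 were tested and none was called (lowest adjusted p = 0.416) or reached an unadjusted p under 0.05. By limma on log2(FPKM + 1) without a filter 1 of the 16 had an unadjusted p under 0.05 and none was called, and DESeq2 gave them no adjusted p and none at an unadjusted p under 0.05.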

How the data were processed

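The table was made by the authors, with HISAT2, HTSeq 0.13.5 and GRCh38 per the submitters' processing notes. The deposited counts are whole numbers, labelled as counts per gene and not scaled to a common total. Their low values pile up at multiples of 4, which counting each read once with HTSeq would not be known to give, and the step behind this is not stated in the sources used here. The deposited FPKM values come from the same libraries as the counts, so they are no independent measurement. At low counts, exonic length and library size did not account for the ratio of counts to FPKM. H3C4 had 11 counts and 0.32 FPKM in NC replicate 1, and 2 counts and 0.0234 FPKM in NC replicate 2. Libraries were made with a NEBNext Ultra RNA kit, and poly(A) selection and the use of strand are not given in the sources used here. Members were matched by current Ensembl ID (67) or, for H2AC18 and H2AC19, by their GENCODE 29 name. Members, gene lists and tests were chosen with earlier results of these data known. Counts were tested with edgeR 4.0.16 (TMM, filterByExpr, quasi-likelihood test, Benjamini-Hochberg adjustment over all genes) in R 4.3.3, on the 3 NC and 3 shPRMT6 libraries. Named genes were every called member, the 2 members of highest mean FPKM in each class, PRMT6, SLBP, NPAT, CDC20 and up to 3 called genes of smallest p per list and direction; others were chosen after their values were seen. A gene that this rule selects is not reported here. Alternatives were DESeq2 1.42.0, limma 3.58.1 on log2 FPKM, other scaling, filters and thresholds, a replicate block, each library left out, members with under 5% shared 75-base stretches, counts divided by 4 and summed near-identical pairs. The programs were tested on simulated data. No library was a copy of another, since pairs within a group gave a chi-square of 14.6 to 24.0 per degree of freedom even on counts divided by 4.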

Additional observations from a re-analysis of the deposited data

How the results depend on the processing

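Over 17 alternative fits, the calls of H1-2, H2AC6, H2BC5, H2BC9, H2BC12, H2BC21, H2BC4, H3C6, H4C8 and H4C9 kept their direction and their side of the threshold, as did H2AC19 and H2AC11 in the 16 and 15 fits that could be made for them. H2BC8, H2BC11, H2BC15 and H3C10 lost theirs in 6, 4, 5 and 4 of 15 fits, with no change of direction. Members called ranged from 11 (adjusted p under 0.01) to 18 (DESeq2), and from 12 to 16, with 11 to 15 higher and 1 lower, when each library was left out in turn. All genes called came to 3362, to 1320 at an adjusted p under 0.01, and to between 1755 and 3183 with a library left out (1939 without NC replicate 3, and 1871, 1755 and 1858 without shPRMT6 replicates 1, 2 and 3). Among uncalled members named, H2AC18 was called without shPRMT6 replicate 3 and with its pair summed, H3C3 and H4C12 kept their direction without a call, and H1-5 went from -0.68 to 0.038 with a library left out, the latter without shPRMT6 replicate 1. The PRMT6 log2 fold change ranged from -1.0 to -0.73 with a library left out, and limma without a filter gave -0.47 (adjusted p = 0.0578).

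The replicate block gave 13 members called, 1858 genes called and -0.88 for PRMT6 (adjusted p = 0.0803). With the block H2BC8, H2BC11 and H3C10 lost their calls (adjusted p = 0.0587, 0.0704 and 0.0654, edgeR). Libraries with the same number did not deviate together (correlations from -0.03 to -0.017), and none correlated best with its own number. All correlations between NC and shPRMT6 libraries were weak (from -0.03 to 0.045), so they cannot tell whether libraries of the same number were prepared together.

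Class medians have no test and moved with the filter, since it decides which low genes enter. They were -0.04 for H1, 0.67 for H2A, 1.11 for H2B, 0.35 for H3 and 0.22 for H4. With at least 10 counts in every library H1, H2A and H3 gave 0.10, 0.98 and 0.87, and with at least 1 count in any library H1, H2A and H4 gave 0.10, 0.38 and 0.028. DESeq2 gave 0.99 for H2A. On log2(FPKM + 1), for genes averaging 1 FPKM or more, H1, H2A, H2B and H3 gave 0.80, 0.94, 1.52 and 0.81; with a pseudocount of 0.1 the classes in order gave 0.86, 1.2, 2.11, 1.31 and 0.46; without the filter H2A, H2B and H4 gave 0.15, 0.19 and -0.001. Counts divided by 4 gave 0.87, 1.30, 1.40, 1.57 and 0.60. Members with under 5% of shared stretches gave 0.93 for H2A and 1.39 for H3. With a library left out the medians ranged from -0.19 to 0.037 (H1), 0.25 to 0.71 (H2A), 0.84 to 1.21 (H2B), -0.16 to 0.55 (H3) and 0.01 to 0.49 (H4).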
